A study of Oryza sativa with 4 samples.

Results

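Kinesins, the motor proteins of microtubules, were examined as a gene family in rice (Oryza sativa) leaf tissue taken at 3 weeks of age. Leaves overexpressing OsBIERF3 (OsBIERF3-OE), which encodes a transcription factor of the ERF family, were set against leaves of the wild type (WT). All plants were grown at normal conditions, and each genotype had 2 arrays. Members were the genes whose symbol or synonym is KIN, a number and an optional letter. A total of 37 genes had such a name, and 34 of them were among the 17905 genes with a probe set of their own on the array. The genes KIN12F, KIN14D and KIN14P had no probe set in the table used here. Of the 34 genes, 33 have names of kinesin subfamilies, namely kinesin-1, kinesin-4, kinesin-5, kinesin-7, kinesin-8, kinesin-10, kinesin-12, kinesin-13 and kinesin-14. The name KIN17 meets the same rule but is used in other organisms for a nucleic acid-binding protein that is no kinesin, and the gene is given apart where it matters. The labels call the replicates biological but give neither the promoter of the transgene, nor the number of lines, nor whether a replicate was 1 plant or a pool. The p-values measure the spread between these samples. OsBIERF3 was not found by that name among the probed genes, so its own level, which would check the genotype labels, was not analysed.

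Kinesins are motor proteins that use ATP to move along microtubules or to shorten them. In dividing plant cells they build and focus the spindle, move chromosomes, and work in the phragmoplast, the microtubule array that lays down the new cell wall between daughter nuclei. Other members act outside division, in cell elongation, the order of cellulose microfibrils in the wall, and the positioning of nuclei and organelles. A mature leaf blade holds few dividing cells, while the base of a growing grass leaf holds many.

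In OsBIERF3-OE leaves 20 of the 34 genes rose, 1 fell and 13 did not pass limma's test at an adjusted p of 0.05. That is 58.8% higher and 2.94% lower, beside 17.2% higher and 14.5% lower among all 15981 tested genes, counted with 1 probe set per gene. The size of a rise was counted with signals at or below the background level, the brightest control probe set with no target in rice on each array, set to that level. On that scale 13 of the 34 genes (38.2%) were called and rose at least 2-fold, beside 7.2% of all tested genes. For a rise of at least 4-fold it was 8 of the 34 (23.5%), beside 2.16%. The median log2 change was 0.91 for the 34 genes and -0.04 for all tested genes, and it was 0.91 without KIN17 too. With dim signals at the background level the medians were 0.85 and -0.0087. The signals of the genotypes did not overlap for 28 of the 34 genes (82.4%), against 73.8% of all tested genes. Of these, 25 were higher in OsBIERF3-OE (73.5%, beside 34.4% of all tested genes) and 3 lower (8.82%, beside 39.4%). All 34 genes passed the filter on dim probe sets. KIN14E and KIN7A did so with WT means below its limit of 12.3 signal units. With no filter the counts were again 20 and 1. Rescaling the arrays on the hybridization controls, RNAs added to each array, gave 24 rises and 1 fall and a median of 1.20. Rescaling shifts every change by the same amount. It moved the median of all tested probe sets to 0.25 from -0.04, so the family stood 0.95 above it either way by construction. Of all calls 82.7% were then rises, in place of 51.3%. In whole-leaf RNA a larger number of cells that express a gene and more RNA per cell cannot be told apart.

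**Figure D1:**
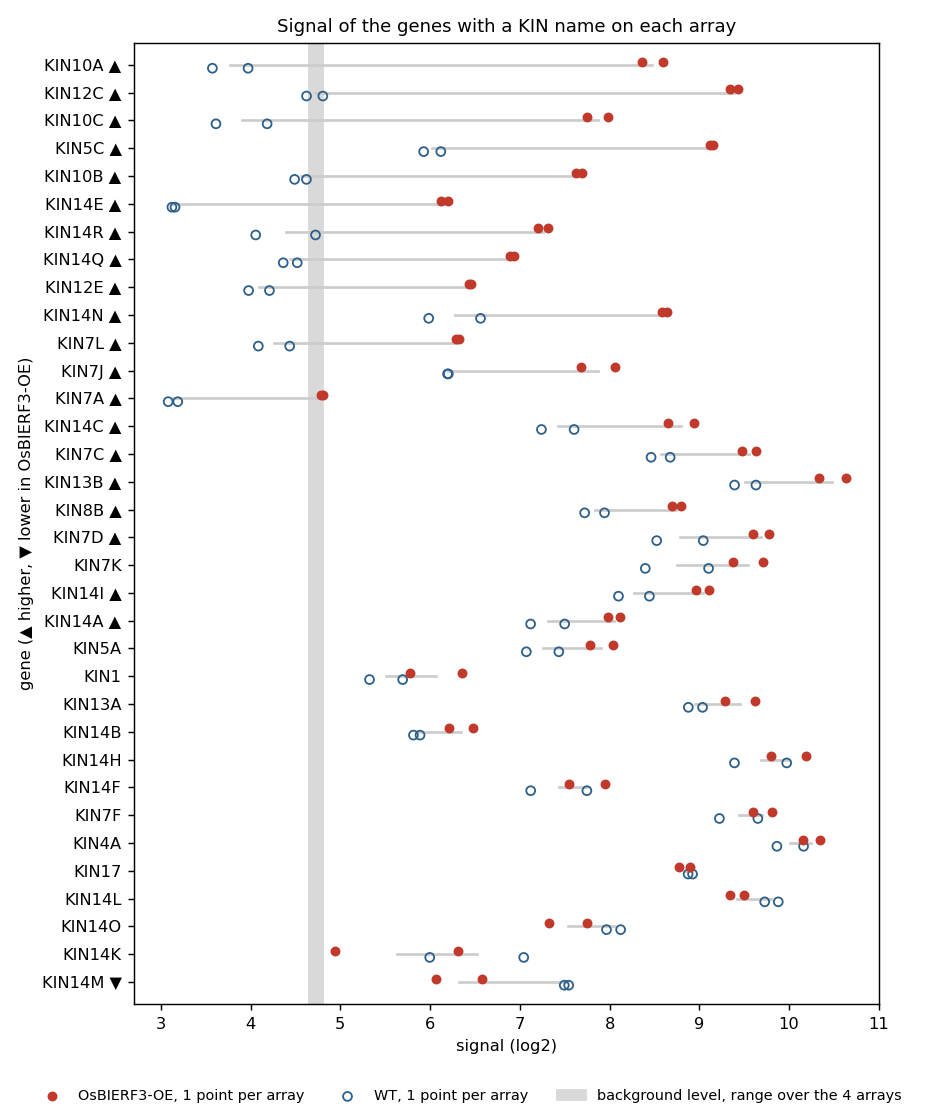
Signal of the 34 genes on each array, on a log2 axis. Filled points are the 2 OsBIERF3-OE arrays, open points the 2 WT arrays, grey lines join the group means, and the grey band is the background level of 25.1 to 28.0 signal units. Triangles beside the names mark genes that passed the test. The genes run from the largest log2 change, 4.70 for KIN10A, at the top to -1.20 for KIN14M at the bottom.

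All 3 kinesin-10 genes and both kinesin-12 genes rose. Kinesin-12 proteins of Arabidopsis act at the phragmoplast and mark the division plane, and a kinesin-10 protein of Arabidopsis has been placed on phragmoplast microtubules. KIN10A (LOC4331094), also known as STD1 after a stemless dwarf mutant of rice whose cells fail in division, had signals of 386.5 and 327.7 on the OsBIERF3-OE arrays, against 15.7 and 11.9 on the WT arrays. Both WT signals were below the background level. The rise was therefore at least 13.9-fold (log2 change 4.70, SE 0.20, limma adjusted p = 0.00033). KIN12C (LOC4333349) had 651.0 and 689.2 in OsBIERF3-OE and 27.9 and 24.6 in WT, with 1 of the WT arrays above background. Its fitted change was 25.5-fold (SE 0.14 on the log2 scale, adjusted p = 0.000159), and 25.3-fold with the dim array at the background level.

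KIN10C (LOC4339007) had signals of 253.1 and 215.0 in OsBIERF3-OE and 12.2 and 18.2 in WT. Neither WT array was above background, and the rise was at least 9.14-fold (adjusted p = 0.00084). KIN10B (LOC4335606) had 198.1 and 206.9 in OsBIERF3-OE and 22.5 and 24.6 in WT, a rise of at least 7.93-fold (adjusted p = 0.000405). The 3 kinesin-10 genes had no WT signal above background, while both OsBIERF3-OE arrays were above it for each of them. The second kinesin-12 gene, KIN12E (LOC4344043), averaged 87.2 ± 0.80 in OsBIERF3-OE and 17.1 ± 1.94 in WT (SD, n = 2 each), a rise of at least 3.42-fold. In none of these 5 genes did the genotypes overlap, which also held for 73.8% of all tested genes (34.4% with OsBIERF3-OE higher). With each array left out in turn, the lowest fitted log2 change among the 5 was 2.24, in KIN12E, with dim WT signals taken as read.

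Kinesin-5 proteins cross-link antiparallel spindle microtubules and slide them apart. The gene KIN5C (LOC9271005) had signals of 567.7 and 556.7 in OsBIERF3-OE and 69.5 and 60.9 in WT. All 4 arrays were above background, so this 8.64-fold rise was measured on both sides (log2 change 3.11, SE 0.13, adjusted p = 0.000356). Its relative KIN5A (LOC9268593) had 219.8 and 262.8 in OsBIERF3-OE and 172.9 and 134.6 in WT. The groups did not overlap, but the log2 change of 0.66 (95% confidence interval 0.19 to 1.12) did not pass, with an adjusted p of 0.0554. KIN5A passed at the same log2 change in the fit with all dim signals set to the background level. In that fit the family again had 20 rises, with KIN5A in place of KIN7A.

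Kinesin-8 and kinesin-13 proteins act on microtubule ends, and those of animals and yeast shorten microtubules. KIN8B (LOC4334272) rose 1.88-fold, to 429.2 ± 21.2 in OsBIERF3-OE against 228.7 ± 24.8 in WT. KIN13B (LOC4326684) rose 1.96-fold, to 1439 ± 207 in OsBIERF3-OE against 732.7 ± 85.4 in WT. Both are read by probe sets that may be shared between genes. Without WT replicate 2 neither passed (adjusted p = 0.0566 for KIN8B and 0.0609 for KIN13B), and without OsBIERF3-OE replicate 2 KIN8B did not (0.0513). The gene KIN13A (LOC4337845), also known as SRS3 and needed for normal seed length in rice, had 626.3 and 784.8 in OsBIERF3-OE and 525.0 and 470.4 in WT, a log2 change of 0.50 (interval 0.11 to 0.88) that did not pass. The other probe set of KIN13A gave the same log2 change of 0.50 (adjusted p = 0.154), while that of KIN8B was below background on all arrays and gives no second reading.

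Of the 7 kinesin-7 genes, 5 rose and 2 did not pass, and no signal mean was lower in OsBIERF3-OE. The subfamily includes the NACK proteins, known from tobacco, which switch on the kinase cascade that lets the phragmoplast expand, and their rice counterpart KIN7A (LOC4323990, also DBS1 and OsNACK). KIN7A had signals of 27.9 and 27.6 in OsBIERF3-OE and 8.45 and 9.11 in WT. Only 1 OsBIERF3-OE array was above background, so although the test passed (adjusted p = 0.00199), the rise can be given only as at least 1.09-fold. With dim signals raised to the background level it did not pass (adjusted p = 0.183).

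KIN7L (LOC4350714) averaged 78.9 ± 1.18 in OsBIERF3-OE and 19.3 ± 3.29 in WT, a rise of at least 3.09-fold. KIN7J, above background on every array, rose 3.19-fold, to 236.1 ± 43.2 in OsBIERF3-OE against 73.4 ± 0.30 in WT. The other rises, in KIN7C (LOC4330142) and KIN7D (LOC4330897), were 1.98-fold and 1.87-fold. KIN7D did not pass without OsBIERF3-OE replicate 1 (adjusted p = 0.0551), OsBIERF3-OE replicate 2 (0.105) or WT replicate 2 (0.0861). The gene KIN7K, with a log2 change of 0.79 (adjusted p = 0.0862), passed when WT replicate 1 was left out (0.035) and when the arrays were scaled on the hybridization controls. KIN7F (LOC4336528) had 775.1 and 897.2 in OsBIERF3-OE and 804.7 and 598.1 in WT. Its groups overlapped, and the interval of the log2 change ran from -0.19 to 0.72.

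Kinesin-14 is the largest subfamily in plants, and its best known members walk toward the minus ends of microtubules. Its 14 genes on the array were also the most mixed, with 7 rises, 1 fall and 6 that did not pass. KIN14E (LOC4331382) had signals of 73.4 and 69.4 in OsBIERF3-OE and 8.92 and 8.70 in WT, well under background there, so the fitted 8.10-fold change is given as at least 2.80-fold (adjusted p = 0.000383). KIN14R (LOC4352796) had 159.2 and 147.1 in OsBIERF3-OE and 26.4 and 16.6 in WT, of which 1 array was above background (fitted change 7.30-fold, adjusted p = 0.00285, and 5.94-fold with the dim array at the background level). KIN14Q (LOC4352456) is listed also as KCH1, a kinesin with a calponin homology domain that binds actin filaments as well as microtubules. Its signals were 118.8 and 122.7 in OsBIERF3-OE and 20.6 and 22.9 in WT, a rise of at least 4.73-fold (adjusted p = 0.00084).

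The gene KIN14N (LOC4342193), above background throughout, rose 5.06-fold, to 391.0 ± 11.8 in OsBIERF3-OE against 78.9 ± 22.0 in WT. KIN14C (LOC4326167) rose 2.59-fold. Smaller rises were those of KIN14I, also KCBP, the calmodulin-binding kinesin, at 1.70-fold and of KIN14A (LOC4327702) at 1.67-fold. KIN14I did not pass without OsBIERF3-OE replicate 1 (adjusted p = 0.053), OsBIERF3-OE replicate 2 (0.0983) or WT replicate 2 (0.102). KIN14A did not pass without OsBIERF3-OE replicate 1 (0.109), OsBIERF3-OE replicate 2 (0.0884) or WT replicate 1 (0.121).

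The one fall of the family was in KIN14M (LOC4341280), with signals of 95.6 and 66.9 in OsBIERF3-OE and 186.7 and 180.4 in WT. It was 2.29-fold higher in WT (log2 change -1.20, SE 0.20, adjusted p = 0.0164). The groups were apart, but the call did not pass without WT replicate 1 (0.0627) or WT replicate 2 (0.0662). The means of KIN14L, KIN14O and KIN14K were also lower in OsBIERF3-OE, but their log2 changes of -0.38, -0.51 and -0.89 did not pass. For KIN14K (LOC4339353), whose probe set may match several genes, the replicates were far apart, with 79.5 and 30.7 in OsBIERF3-OE and 63.8 and 131.9 in WT. Its interval ran from -2.28 to 0.49. Another tested probe set of KIN14K gave a log2 change of -0.66 that did not pass (adjusted p = 0.145). Its signals were 57.4 and 47.5 in OsBIERF3-OE and 64.1 and 106.6 in WT. A further probe set of KIN14K was below background on all arrays and was not tested. The brightest gene of the subfamily that did not pass was KIN14H, with 892.3 and 1171 in OsBIERF3-OE and 1006 and 671.9 in WT, which overlapped (interval -0.29 to 0.92). KIN14B and KIN14F had log2 changes of 0.50 and 0.31 and did not pass either.

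The kinesins not yet described are KIN4A and KIN1. KIN4A, listed also as GDD1, acts in cell elongation and in the order of cellulose microfibrils in rice. It had signals of 1138 and 1301 in OsBIERF3-OE and 1146 and 932.6 in WT, which overlapped, with a log2 change of 0.24 (interval -0.13 to 0.60). KIN1 (LOC4344521), also PSS1, a gene of male meiosis and pollen fertility in rice, had 81.6 and 54.9 in OsBIERF3-OE and 51.8 and 40.1 in WT. Its interval, from -0.08 to 1.19, does not bound the change closely, and its probe set may be shared between genes. KIN17 had 478.0 and 439.3 in OsBIERF3-OE and 486.0 and 469.6 in WT, a log2 change of -0.06 (interval -0.35 to 0.23).

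**Figure D2:**
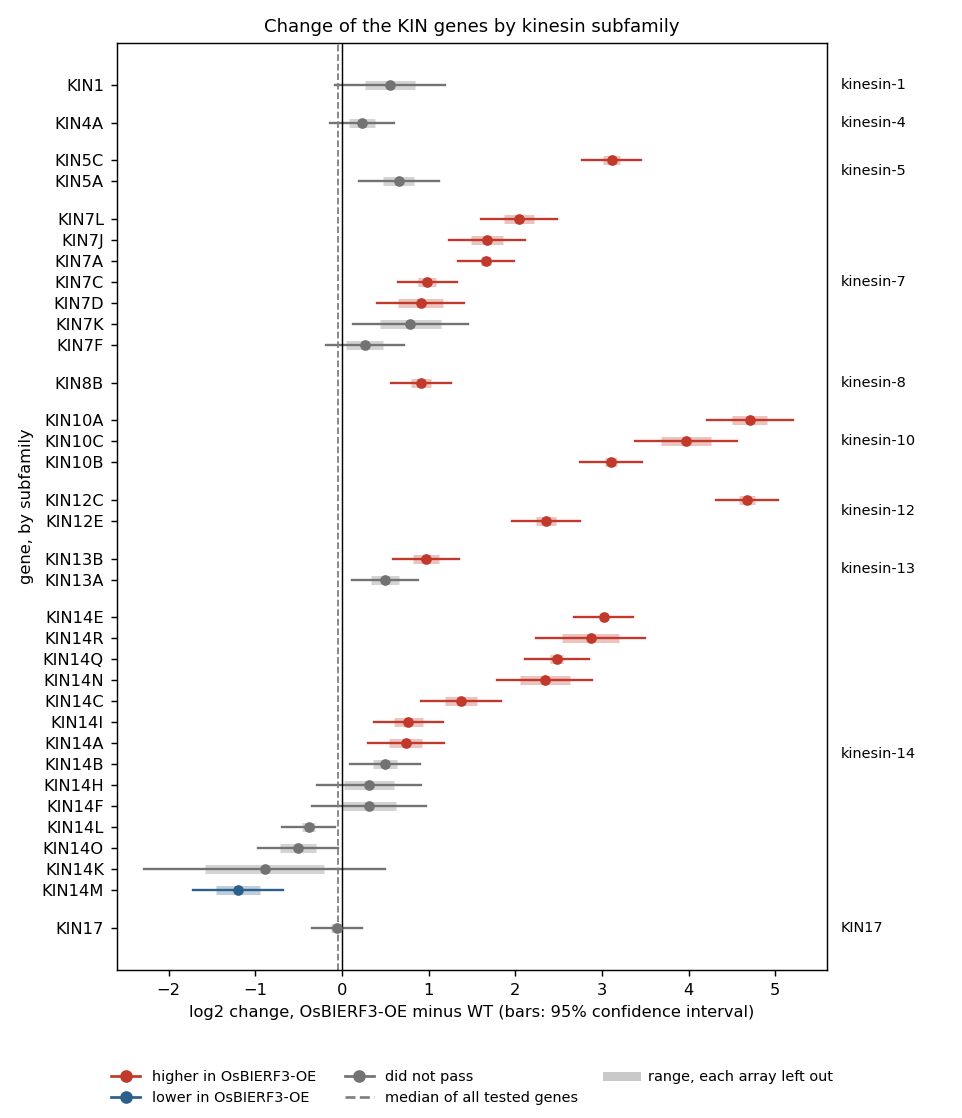
Log2 change (OsBIERF3-OE minus WT) of the 34 genes by subfamily. Points are fitted changes, thin bars their 95% confidence intervals, thick pale bars the range when each array is left out, and the dashed line the median of all tested genes, -0.04. The fitted points of KIN10A, KIN10B, KIN10C, KIN12E, KIN14E, KIN14Q, KIN7A and KIN7L rest on WT signals not above background, so their sizes are not measured beyond the lower bounds in the text.

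The spread within the subfamilies was as follows. With dim signals at the background level, so that the changes of genes dim in WT are lower bounds, the 3 kinesin-10 genes had log2 changes of 2.99 to 3.80 and the 2 kinesin-12 genes of 1.77 and 4.66. On the same scale kinesin-7 genes ran from 0.13 to 1.67 with a median of 0.91, and kinesin-14 genes from -1.20 to 2.57 with a median of 0.62. These ranges describe the genes and were not tested, since genes are not replicates. All 8 genes whose WT signals were not above background on either array rose, as did KIN12C and KIN14R, with 1 WT array above it. Of the 24 genes above background on both WT arrays 10 rose and 1 fell. Among all tested genes 1204 were not above background in WT, and 375 of these (31.1%) were called higher, against 16.1% of the others. The filter bears on this share, because a gene dim in WT passes it more easily when it is brighter in OsBIERF3-OE.

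**Figure D3:**
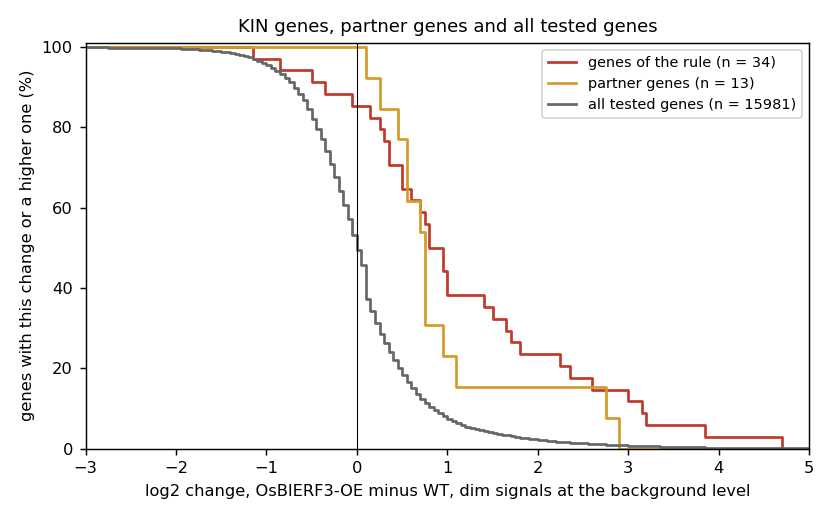
Percentage of genes whose log2 change (OsBIERF3-OE minus WT) is at least the value on the horizontal axis, for the 34 genes with a KIN name, 13 partner genes and all 15981 tested genes, with dim signals set to the background level. At a change of 2 the KIN genes are at 23.5%, the partner genes at 15.4% and all tested genes at 2.19%.

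Kinesins run on microtubules, and other genes of the spindle and of cytokinesis were read from a list of names. Of the 15 genes found by these names, 13 had a probe set, and 11 of those encode tubulins. In OsBIERF3-OE 10 of the 13 rose (76.9%, beside 17.2% of all tested genes), 0 fell and 3 did not pass, with a median log2 change of 0.70. The beta-tubulin gene TUBB2 (LOC4331315) had signals of 2684 and 2663 in OsBIERF3-OE and 393.3 and 333.1 in WT, a 7.39-fold rise (adjusted p = 0.000342). CENH3 (LOC4339159), the histone H3 variant that marks centromeres, had 339.9 and 327.9 in OsBIERF3-OE and 44.0 and 58.4 in WT, a 6.58-fold rise (adjusted p = 0.00122). TUBB1 and TUBB4 rose 2.07-fold and 1.92-fold, and the 6 other rises were smaller. With the mean of all probe sets of a gene, TUBB1 (log2 change 0.46, adjusted p = 0.0586) and TUBB3 (0.17, adjusted p = 0.387) did not pass. Fewer of the 13 genes passed with an array left out, and so did fewer of all tested probe sets. With each array left out in turn, the lowest log2 changes of TUBB2, CENH3 and TUBB1 were 2.76, 2.51 and 0.87. Among the other rises the lowest ran from 0.39 in TID1 to 0.72 in TUBB4.

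**Figure D4:**
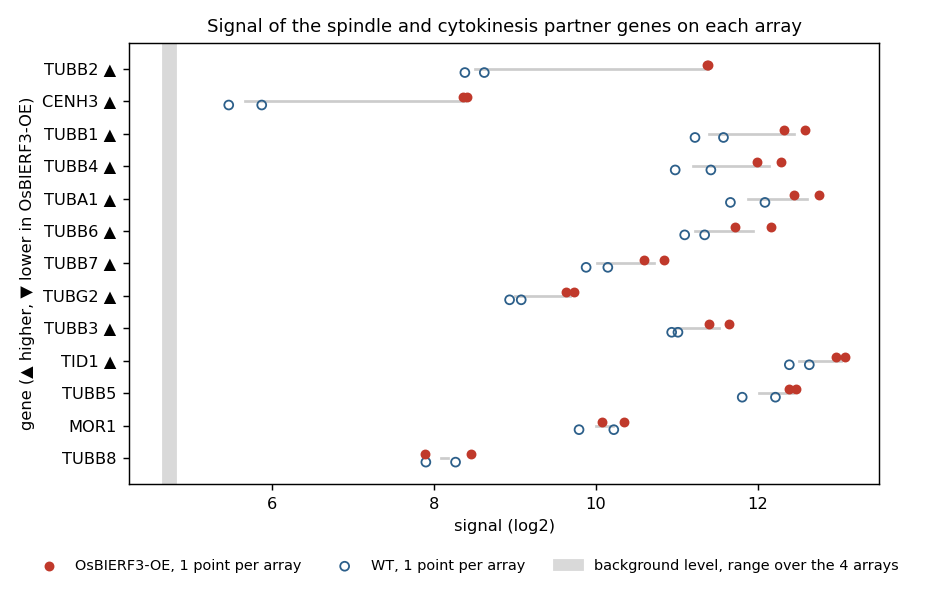
Signal of the 13 partner genes on each array, on a log2 axis, with symbols as for the KIN genes. TUBB2 and CENH3 show the widest gaps between OsBIERF3-OE and WT, 2.88 and 2.72 on the log2 scale, and all points lie above the background level.

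Several other measures differed between the genotypes beside these genes. The GAPDH control has probe sets at both ends of the transcript, and the log2 ratio of its 3′ signal over its 5′ signal, a sign of RNA or cRNA integrity, was 2.88 and 2.86 in OsBIERF3-OE and 3.68 and 3.48 in WT. The difference in this ratio, OsBIERF3-OE minus WT, was -0.85 to -0.55 for the 3 actin pairs, -0.27 for ubiquitin and 0.04 for cyclophilin. The actin pairs are not all separate readings, since some of them share a 5′ probe set. The actin control probe sets also had more signal in OsBIERF3-OE, by 1.01 to 1.25 on the log2 scale at the 3′ end and by 1.81 to 1.93 at the 5′ end. Cyclophilin was higher too, by 0.95 at the 3′ end and 0.91 at the 5′ end, and GAPDH by 0.36 and 1.07. Ubiquitin differed by -0.12 and 0.15. The part of these control differences in the changes of the kinesin and partner genes was not tested. The 4 genes read as leaf photosynthesis markers were RBCS, CAB2R, PSAG and RBCS1, the last of which was not in the planned list. RBCS, a small subunit gene of Rubisco, was at 18046 and 18252 in OsBIERF3-OE and 17364 and 17546 in WT. CAB2R was at 11154 and 11550 in OsBIERF3-OE and 12671 and 11837 in WT and did not pass (log2 change -0.11). PSAG, of photosystem I, was lower in OsBIERF3-OE (log2 change -1.17, adjusted p = 0.00889). RBCS1 was not above background on any array. The summed signal of the 4 was 29497 to 30183 in OsBIERF3-OE and 30137 to 30784 in WT. That sum is nearly all RBCS and CAB2R, so it does not show the change of PSAG. The 4 class I KNOX genes with a probe set, markers of the shoot meristem (OSH1, OSH6, OSH43 and OSH71), were not above background on any array, so their summed signal, 46.7 to 48.3 in OsBIERF3-OE and 40.6 to 40.7 in WT, is a sum of background readings and measures no level of these genes. Of 6 meiotic and anther genes 4 were not above background on any array, and the summed signal was 126.9 to 231.4 in OsBIERF3-OE and 127.2 to 140.9 in WT, the highest value coming from DMC1A on 1 array. Of the 2 root markers LSI2 was not above background on any array, and the sum was 109.3 to 191.3 in OsBIERF3-OE and 242.8 to 292.8 in WT. That sum is nearly all LSI1, with 184.6 and 102.9 in OsBIERF3-OE and 283.5 and 234.7 in WT. LSI1 did not pass (log2 change -0.90, adjusted p = 0.0849). No stomatal lineage gene of the list was found in the gene table.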

How the data were processed

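The values deposited by the authors are signal intensities per probe set on a linear scale, 1 column per array (medians 19.7 to 20.3). Per the submitters' processing notes MAS5 was used; its version and the background correction are not given in the sources used here. Values with a lower limit of 1 were put on the log2 scale. After removal of 123 control probe sets, the brightest 60% (34355 probe sets, by mean log2 signal) were fitted with limma 3.58.1 in R 4.3.3 (genotype alone, eBayes with trend, 2 residual and 5.28 total degrees of freedom, Benjamini-Hochberg adjustment over all of them). Adjusted p-values are limma's. The script was tested on simulated data.

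Gene names came from the platform's annotation and from RefSeq; 22436 had 1 gene, 95 several and 34727 none, and the 17905 genes all matched RefSeq. The brightest probe set stood for a gene. "At least" folds use, on dim arrays, the brightest of 33 controls with no target in rice (25.1 to 28.0). Precision is limited by having 2 arrays per genotype. Named with per-array values were the 8 largest rises by fitted log2 change, every fall and, per subfamily, the brightest gene that did not pass. With dim signals at the background level the order of the rises differs. Others given are further examples. The members and lists were chosen with earlier results of these data known. Alternatives changed the scaling, dim signals, pseudocount, filter, moderation, probe set rule, block and arrays used. Coordinates, sequences and sequence motifs were not used here.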

Additional observations from a re-analysis of the deposited data

How the results depend on the processing

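Of the 20 rises, 14 passed under each of the 13 alternatives in which they were tested, and all 20 kept their direction under them. The fall of KIN14M was lost when either WT array was left out. With hybridization-control scaling the median log2 change of the family became 1.20 in place of 0.91, and the rises 24 in place of 20, KIN5A, KIN7K, KIN13A and KIN14B passing as well. With each array left out in turn the rises ranged from 16 to 20, the falls from 0 to 1, the median from 0.83 to 1.09, the partner rises from 3 to 9, and all calls from 3270 to 6171 of the 34355 probe sets, against 8331 with all arrays. Keeping the upper 40% of probe sets left 30 of the 34 genes tested and 16 rises. Without the probe sets that may be shared the rises were 18 of 30, an alternative chosen after seeing the data, as was leaving out KIN17.

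The genotypes share replicate numbers in the titles, but no label says that a number marks a shared batch, so the arrays were not treated as pairs. The difference between replicates 1 and 2 correlated at -0.25 between the genotypes over the tested probe sets. With the replicate block 4540 probe sets, 17 rises and 1 fall of the family and 4 partner rises passed, and with the crossed block, added after seeing the data, 12339 probe sets, 24 rises and 4 falls. Direction changed for 4 genes, none of which passed with all arrays. With each array left out in turn KIN14F ranged from -0.00083 to 0.63, KIN17 from -0.12 to 0.0010, MOR1 from -0.0076 to 0.42 and TUBB8 from -0.19 to 0.37, and with hybridization-control scaling KIN17 was at 0.23. The cause was not tested. Signals at or below background limit the size of 10 of the 20 rises, 8 of them dim on both WT arrays and KIN12C and KIN14R on 1. Counting sizes with dim signals at the background level was chosen after seeing the data.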

Other observations

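Within the genotypes, the replicates of the kinesin genes often differed in the same direction. Of the 34 genes with a KIN name, 19 were brighter on OsBIERF3-OE array 2 than on array 1 and also brighter on WT array 1 than on array 2, which is 55.9%, beside 36.8% of all tested genes. Of the 24 that were above background on both WT arrays 16 did so (66.7%), beside 37.6% of the 14370 tested genes above background there. Among the 13 partner genes, mostly tubulins, 11 (84.6%) did so. On the log2 scale the median differences in these directions were 0.062 between the OsBIERF3-OE arrays and 0.22 between the WT arrays for the 34 genes, 0.17 and 0.23 for the 24, and 0.25 and 0.27 for the partner genes, against -0.0049 and 0.036 for all tested genes. Without OsBIERF3-OE replicate 2, or without WT replicate 2, the median log2 change of the family was 0.83, against 0.91 with all arrays. Without OsBIERF3-OE replicate 1 it was 0.98, and without WT replicate 1 it was 1.09. The median of all tested probe sets ran from -0.055 to -0.014 with these arrays left out in turn. The comparison of replicate directions was chosen after seeing the data, and the cause of the pattern was not tested.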
